A study of Mus musculus with 6 samples.

Results

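The genes described here are 49 mouse genes of amino acid catabolism and the urea cycle, chosen by name from among the 15454 rows of the gene count table and sorted into pathways. All 49 had a row, and 48 of them passed the filter on low counts that left 12411 genes for testing. The 1 left out, Dao, a D-amino acid oxidase, had 5 counts in I/R replicate 2 and 0 in the other livers. Libraries were made from 250 ng of RNA from livers of male C57BL/6 mice of 8 to 10 weeks in which 75% of the liver had been made ischemic while warm and then reperfused (I/R, ischemia and reperfusion). The I/R group (3 mice) received vehicle, and the I/R+Rk2 group (3 mice) received ginsenoside Rk2, a saponin of ginseng, with both treatments given 2 days before surgery and again at reperfusion. Both groups therefore underwent I/R, and the study reported milder liver injury with Rk2. Sham-operated livers were not analysed here, so the values compare I/R livers with and without Rk2 and say nothing of the uninjured level. The question was which liver transcripts differed with Rk2 after I/R.

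Hepatocytes hold nearly the whole machinery for breaking down amino acids. Aminotransferases and dehydratases take the nitrogen off, the carbon skeletons enter glucose, ketone body or energy metabolism, and the ammonia that is left is made into urea by a cycle that runs partly in mitochondria and partly in the cytosol. Most of these genes are known as hepatocyte genes that respond to feeding, glucagon and glucocorticoids, and several are known to be arranged along the lobule: urea synthesis and histidine breakdown around the portal vein, glutamine synthesis around the central vein.

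Total counts were between 16809613 and 35618074 per library. The labels give each library a replicate number within its group and no batch. Values below are counts per 1000000 of the TMM-scaled library size (CPM, where TMM is the trimmed mean of M values), always listed for replicates 1, 2 and 3 of a group in that order. Alb, which encodes albumin and marks hepatocytes, took 5.05% to 5.36% of all counts in I/R and, with Rk2, 6.72% to 8.35%, so the tissue label matched its main marker. Among 11 hepatocyte markers tested, 5 were higher and 2 lower with Rk2. Markers of infiltrating cells moved strongly: the summed level of 8 monocyte markers was 182 to 214 CPM in I/R against 10.4 to 17.7 CPM with Rk2, with 8 of 8 lower, and that of 8 neutrophil markers 513 to 627 CPM against 92.6 to 214 CPM, with 7 of 8 lower. The part of this difference in the results on amino acid genes was not tested. In bulk liver, fewer cells of a type and less RNA per cell cannot be told apart.

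Most amino acid catabolic genes were higher in the livers of Rk2-treated mice, by modest amounts. By edgeR's quasi-likelihood test with Benjamini-Hochberg adjustment (adjusted p below 0.05), 31 of the 48 genes tested rose, 1 fell (Sds, serine dehydratase) and 16 did not pass. Of all 12411 genes tested, 43.9% were called, 20.3% as higher and 23.7% as lower. The median log2 fold change of the 48 genes was 0.52, against -0.01 for all genes tested, and 83.3% of them had a positive value, against 49.6% of all. Their values ran from -0.80 to 1.49, with quartiles of 0.30 and 0.73, where the quartiles of all genes were -0.51 and 0.38. The genes thus occupied the moderate positive range: 3 of them (Qdpr, Afmid and Kynu) also exceeded a fold change of 2, a limit that together with the adjusted p was met by 14.6% of all genes and in the higher direction by 3.17%. Kynu lay at that limit, and Afmid was below it when counts of an overlapping gene were added. The I/R and I/R+Rk2 livers did not overlap in CPM for 34 genes that were higher and 3 that were lower with Rk2, where 57.4% of all genes were apart, 27.2% and 30.3% in these directions.

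**Figure D1:**
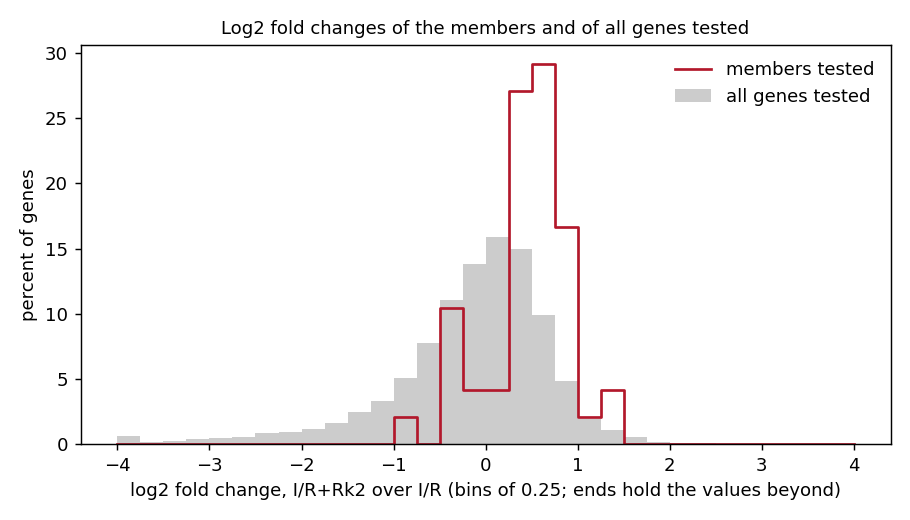
Log2 fold changes (I/R+Rk2 over I/R, horizontal axis, bins of 0.25) against the percent of genes in each bin (vertical axis), with grey bars for all 12411 genes tested and a red outline for the 48 amino acid catabolic genes tested. The outline is centred on a median of 0.52, with 3 genes beyond a log2 fold change of 1, whereas the bars are centred near 0.

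The size of this difference depended on how libraries were scaled, and the median stayed positive under each scaling tried. Without scaling, the genes took 2.45%, 2.54% and 2.23% of all counts in I/R and, with Rk2, 2.49%, 3.23% and 2.8%, so their unscaled share overlapped between the groups. With library size alone, their median log2 fold change was 0.36 while that of all genes moved to -0.17. When libraries were instead scaled to equal levels of the hepatocyte markers, the median was 0.29 and that of all genes -0.24, with 21 genes higher and 5 lower. Such scalings shift all genes by about the same amount, so the distance of 0.53 between both medians stays the same under them by construction.

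**Figure D2:**
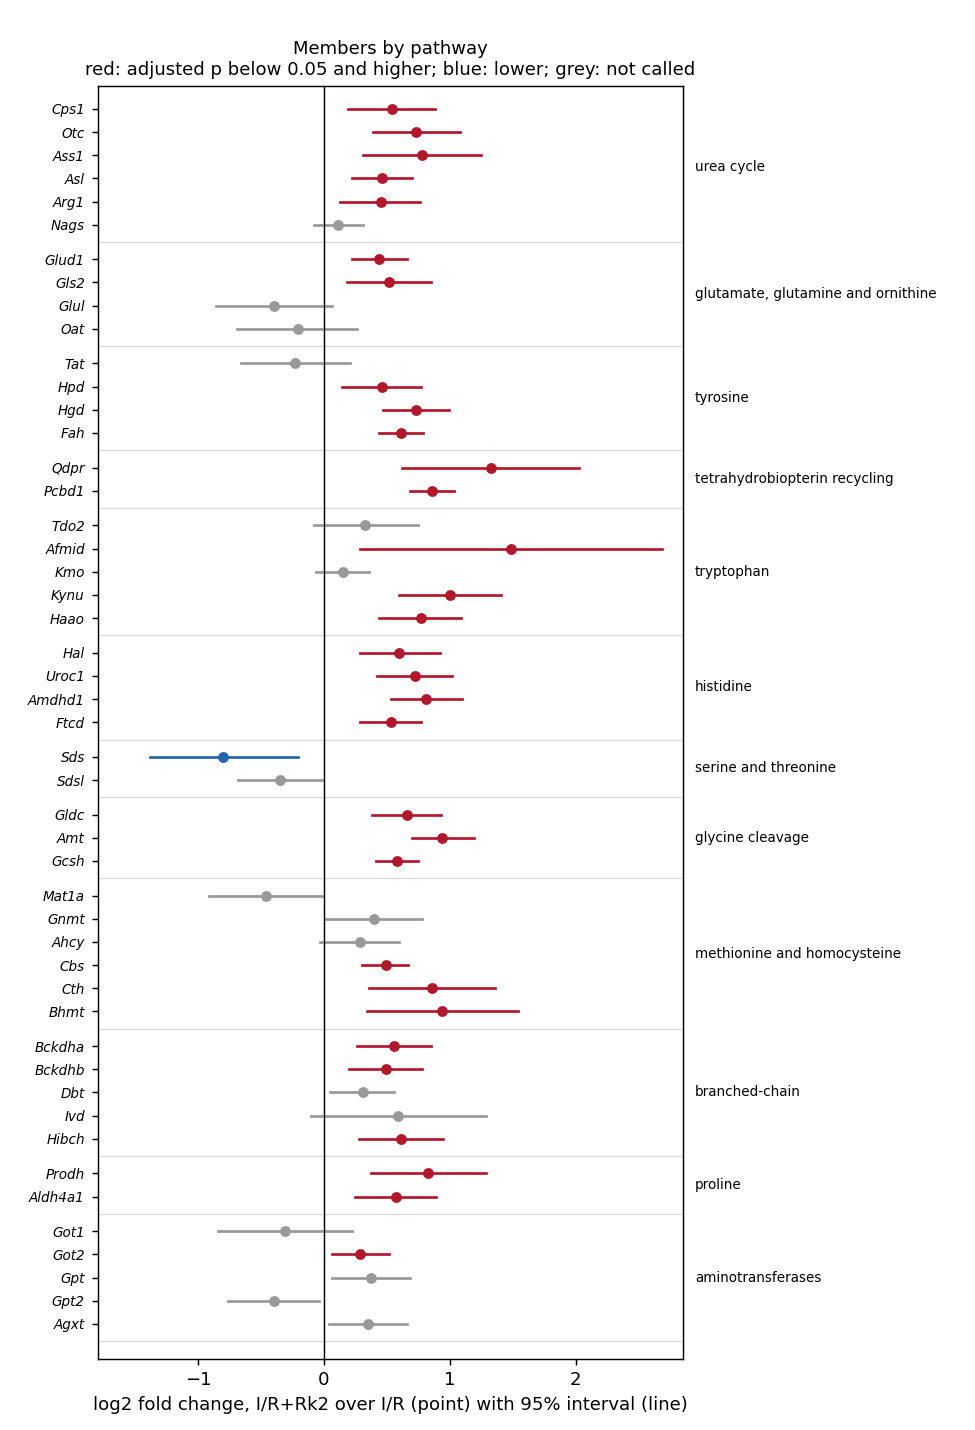
Log2 fold change of each of the 48 genes tested (points, I/R+Rk2 over I/R) with its 95% interval (lines), grouped by pathway, with genes that passed an adjusted p of 0.05 in red (higher) or blue (lower) and the others in grey. The 31 red genes lie between 0.29 and 1.49, the single blue gene is Sds at -0.80, and the grey genes lie on both sides of 0.

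Livers of a group kept a similar order across these genes in TMM-scaled CPM. Among the 31 genes that rose, I/R replicate 1 had the lowest I/R value for 29 and I/R replicate 2 the highest for 27. In the treated group, I/R+Rk2 replicate 1 was the lowest for 24 and replicate 2 the highest for 22. I/R replicate 1 also had the largest TMM factor (1.14), which lowers all its CPM. In unscaled share of counts, I/R replicate 3 was the lowest I/R liver (2.23%), so this order depends in part on scaling. Leaving out 1 library at a time moved the median between 0.46 and 0.60 and the number of genes called higher between 21 (I/R replicate 1 left out) and 34 (I/R+Rk2 replicate 1 left out). The values of these genes within a group thus came from the same few livers and were not independent of each other.

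**Figure D3:**
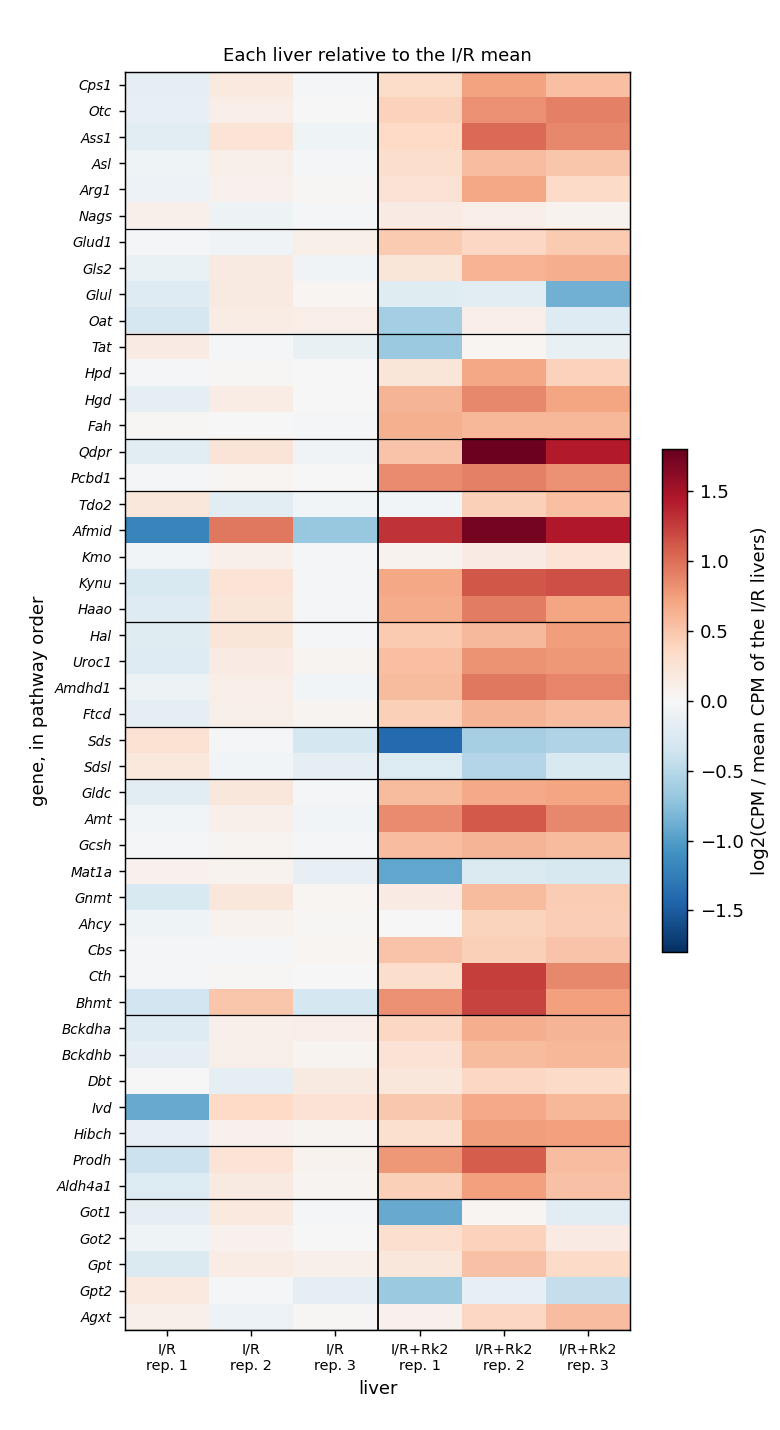
Log2 ratio of the CPM of each liver (columns, 3 I/R and 3 I/R+Rk2) to the mean CPM of the I/R livers for the 48 genes tested (horizontal bands in pathway order), with red above and blue below that mean. Most genes are red in all 3 I/R+Rk2 livers, and Glul, Sds, Sdsl, Mat1a and Gpt2 are blue in all 3.

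In the urea cycle, 5 of 6 genes rose and none fell. Cps1 (chr1:67123026-67231259 in GRCm38, the build of all coordinates here) encodes the mitochondrial carbamoyl phosphate synthetase that commits ammonia to the cycle. Its level was 2357, 3003 and 2615 CPM in I/R against 3342, 4384 and 3862 CPM with Rk2, with every treated liver above every I/R liver (log2 fold change 0.54 ± 0.15 SE, 95% interval 0.19 to 0.88, adjusted p = 0.0228). Otc (chrX:10252305-10321024), whose product joins carbamoyl phosphate to ornithine, stood at 291, 351 and 324 CPM in I/R against 430.0, 569.7 and 605 CPM with Rk2, again without overlap (0.73 ± 0.15 SE, adjusted p = 0.00712). Both mitochondrial steps were thus higher in each treated liver, and so were the cytosolic ones. Ass1 (chr2:31470207-31520672), argininosuccinate synthetase, had the highest level per length of all the genes described, with a mean of 1566 FPKM, a count per transcript length and library size, over the 6 livers. It gave 1837, 2510.0 and 1993 CPM in I/R against 2722, 4297 and 3839 CPM with Rk2 (0.78 ± 0.20 SE, adjusted p = 0.0185). For Asl (chr5:130011258-130029247), argininosuccinate lyase, 236, 268 and 242 CPM stood against 309, 367 and 351 CPM (0.46 ± 0.10 SE, adjusted p = 0.00985). Its call was lost on the 3 FPKM scales (adjusted p = 0.116 to 0.167).

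Arg1, the arginase that releases urea, rose less firmly, with group means of 1072 ± 69.8 and 1460.4 ± 239 CPM (SD, n = 3 each, log2 fold change 0.45, adjusted p = 0.033), and its call was lost under library size alone (0.29, adjusted p = 0.117) and without any of 5 of the 6 libraries. Nags makes N-acetylglutamate, the activator that Cps1 needs. Its livers overlapped between the groups, with means of 50.4 ± 3.28 and 54.6 ± 1.64 CPM (log2 fold change 0.11, 95% interval -0.08 to 0.31, adjusted p = 0.302), and the sign turned under library size alone (-0.05). The intervals of Cps1 (from 0.19), Asl (from 0.22) and Arg1 (from 0.13) began below the upper end of that of Nags. Those of Ass1 (from 0.31) and Otc (from 0.39) did not. The difference between Nags and the other genes of the cycle was not tested. Summed over the pathway, the deposited FPKM were 2744 ± 199 in I/R and 3809 ± 594 in I/R+Rk2, a ratio of 1.39 with no overlap of livers. The calls of Cps1 and Ass1 were lost on leaving out I/R replicate 1 (adjusted p = 0.0676 and 0.0642), I/R replicate 3 (0.0695 and 0.0627), I/R+Rk2 replicate 2 (0.0773 and 0.0614) or I/R+Rk2 replicate 3 (0.0589 and 0.054), while Otc passed in every fit. Under hepatocyte marker scaling Cps1 (adjusted p = 0.0602), Asl (0.0763) and Arg1 (0.155) lost their calls, and Otc and Ass1 kept theirs.

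Of the 4 genes of glutamate, glutamine and ornithine, 2 rose and 2 did not pass. Glud1 (chr14:34310727-34345265), the mitochondrial glutamate dehydrogenase that frees ammonia from glutamate, rose from 787, 773 and 869 CPM in I/R to 1122, 1046 and 1127 CPM with Rk2 (log2 fold change 0.44 ± 0.09 SE, adjusted p = 0.00882). Gls2 (chr10:128194457-128210004), the liver glutaminase, rose from 182, 222 and 189 CPM to 229.6, 305 and 313 CPM (0.52 ± 0.14 SE, adjusted p = 0.0238). Neither pair of groups overlapped, although both calls were lost under library size alone (adjusted p = 0.061 and 0.0618) and that of Gls2 also without any of 4 of the 6 libraries. The 2 genes of this group known for expression around the central vein did not pass and had negative values. Glul (chr1:153899944-153909723), glutamine synthetase, had 559.5, 738 and 676 CPM in I/R against 566, 572 and 361 CPM with Rk2, and only I/R+Rk2 replicate 3 lay clearly below the others (-0.40, 95% interval -0.86 to 0.06, adjusted p = 0.139). Oat, ornithine aminotransferase, had means of 317 ± 51.5 and 273 ± 68.9 CPM (-0.21, adjusted p = 0.423). Glul was called lower under hepatocyte marker scaling (-0.62, adjusted p = 0.0313). The summed FPKM of these 4 genes was 770.4 ± 25.2 in I/R and 791 ± 64.8 in I/R+Rk2, with overlapping livers.

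In tyrosine breakdown, 3 of 4 genes rose and none fell, and the difference between the first enzyme and the later ones was not tested. Tat (chr8:109990437-109999803), tyrosine aminotransferase, a gene long known for induction by glucocorticoids, had 2060.3, 1841 and 1695 CPM in I/R against 1179, 1902 and 1702 CPM with Rk2. Its groups overlapped, with I/R+Rk2 replicate 1 alone at the bottom (log2 fold change -0.23, 95% interval -0.66 to 0.21, adjusted p = 0.352). The 3 listed genes of later steps rose. Gstz1, which acts between Hgd and Fah, is not one of these 4 genes and was not called (-0.02, adjusted p = 0.946). Hpd (chr5:123171807-123182727), 4-hydroxyphenylpyruvate dioxygenase, gave 973, 999.5 and 991 CPM against 1147, 1601 and 1319 CPM (0.46 ± 0.13 SE, adjusted p = 0.0287). Hgd (chr16:37580153-37632020), homogentisate dioxygenase, gave 282, 345 and 319 CPM against 482, 573 and 518 CPM (0.73 ± 0.11 SE, adjusted p = 0.0027). Fah (chr7:84585159-84606722), fumarylacetoacetase, the last step, gave 325, 319 and 312 CPM against 497, 483 and 485 CPM, with little spread in either group (0.61 ± 0.08 SE, adjusted p = 0.00126). Hgd and Fah passed in every fit, whereas the call of Hpd was lost under library size alone (adjusted p = 0.117) and without any of 5 of the 6 libraries. The summed FPKM of the pathway, Tat included, was 1979 ± 183 and 2127 ± 282 and overlapped between the groups.

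The 2 genes that recycle tetrahydrobiopterin, the cofactor of the aromatic amino acid hydroxylases, rose by more than most. Qdpr (chr5:45434021-45450236, minus strand) encodes dihydropteridine reductase and shares 332 exon bases with Gm42413, an antisense gene. Its levels were 121, 163 and 133 CPM in I/R against 198, 474 and 374 CPM with Rk2. All treated livers exceeded all I/R livers, but I/R+Rk2 replicate 1 lay much nearer to the I/R livers than to the other two, and the interval was wide (log2 fold change 1.33 ± 0.30 SE, 95% interval 0.62 to 2.03, 2.51-fold, adjusted p = 0.0111). Pcbd1 (chr10:61089331-61094324), pterin-4a-carbinolamine dehydratase, the other recycling enzyme, had 141, 147 and 144 CPM against 259, 269 and 254 CPM. It had the smallest adjusted p of the 48 genes, with a narrow spread in both groups (0.86 ± 0.07 SE, 1.81-fold, adjusted p = 0.000457). Both passed in every fit. In summed FPKM the pair went from 293 ± 13.2 to 555 ± 98.5, a ratio of 1.89.

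Promoters are printed for the genes past the fold limit that had one in the RefSeq set, which Kynu did not. That of Qdpr is given here. The 250 bases before its RefSeq start (chr5:45450230-45450479, GRCm38.p6, minus strand, 5' to 3') read as follows, with capitals on 2 exact matches to CCAAT, here on the opposite strand as ATTGG, whose first bases lie 244 and 65 bases before the start.
Qdpr promoter: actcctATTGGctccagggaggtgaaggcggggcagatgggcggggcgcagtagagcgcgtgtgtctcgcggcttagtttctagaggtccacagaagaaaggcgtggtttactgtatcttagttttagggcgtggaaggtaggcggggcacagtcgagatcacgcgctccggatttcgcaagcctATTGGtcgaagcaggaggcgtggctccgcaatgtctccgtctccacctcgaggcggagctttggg
Promoters of 37 of the 48 genes tested (38 promoters) were found in the RefSeq table of 32851 promoters. Each window ran from 250 bases before to 50 after the start and was searched on both strands. CCAAT was present in 20 of the 38 (52.6%) and in 37.4% of all promoters, and TATAAA in 15.8% and 13.6%. TGACG, part of the cAMP response element, was in 7.89% against 20.8% of all, and AGAACA, part of the glucocorticoid response element, in 13.2% against 19%. TTGCNNCAA, to which no factor is assigned here, was in 2.63% against 2.08%. The forkhead motifs TGTTTAC and TGTTTGC were in 0% and 2.63% against 3.65% and 5.07%. CAAAGTC, part of the HNF4 motif, was in 2.63% against 4.44%. None of these motifs contains another, and a match describes the letters only.

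In tryptophan breakdown, the 2 best-supported rises were at kynureninase and the oxygenase after it. Kynu (chr2:43555329-43682715), which splits alanine from kynurenine derivatives, had 70.1, 101 and 83.6 CPM in I/R against 138, 185 and 189 CPM with Rk2, without overlap (2.01-fold, 95% interval of the log2 fold change 0.60 to 1.41, adjusted p = 0.00397). It sat at the fold limit itself. Haao (chr17:83831156-83847963), 3-hydroxyanthranilate dioxygenase, which leads toward quinolinate and NAD, had 235, 323 and 273 CPM against 438, 522 and 455 CPM (0.77 ± 0.14 SE, adjusted p = 0.00467). Both passed in every fit. Tdo2 (chr3:81957090-81976202), the dioxygenase that opens the pathway, had 958, 733 and 809.8 CPM against 808, 1128 and 1217 CPM. The groups overlapped through I/R+Rk2 replicate 1 (0.33, 95% interval -0.08 to 0.75, adjusted p = 0.163), and without that library Tdo2 was called higher (0.49, adjusted p = 0.0311). Kmo, kynurenine 3-monooxygenase, had means of 239.9 ± 13.3 and 267 ± 16.8 CPM (0.15, 95% interval -0.06 to 0.36, adjusted p = 0.199), and its sign turned under library size alone (-0.01).

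Afmid (chr11:117825924-117839908), the formamidase that follows Tdo2, carried the largest fold change of the 48 genes, and its call was among those most often lost. Its levels were 18.2, 80.1 and 25.9 CPM in I/R against 102, 136 and 112 CPM with Rk2, so that I/R replicate 2 stood far above the other I/R livers (log2 fold change 1.49 ± 0.51 SE, 95% interval 0.29 to 2.69, 2.81-fold, adjusted p = 0.0489). The call was lost in 11 of 19 settings, among them relative log expression scaling (adjusted p = 0.0501), DESeq2 (0.0509), no filter on low counts (0.0518), removal of the length trend (0.0525) and the omission of any of 5 of the 6 libraries. Afmid shares 1566 exon bases, 44.2% of its own, with Gm20708, an annotated gene on the same strand. Gm20708 ran the opposite way among the livers, at 36.8, 1.52 and 45.5 CPM in I/R against 4.71, 3.02 and 6.57 CPM with Rk2. With the counts of both added, the levels were 55, 81.6 and 71.5 CPM in I/R against 107, 139 and 119 CPM with Rk2, and the fold change was 1.75 (log2 0.81 ± 0.16 SE, 95% interval 0.42 to 1.20, adjusted p = 0.00759). The sum thus rose with a narrower interval and below a fold change of 2, and how the reads were divided between both genes was not tested. The promoter of Afmid (chr11:117825669-117825918, GRCm38.p6, plus strand, 5' to 3', 250 bases before the start) is printed by the same rule as that of Qdpr. It holds none of the 8 motifs, so it has no capitals.
Afmid promoter: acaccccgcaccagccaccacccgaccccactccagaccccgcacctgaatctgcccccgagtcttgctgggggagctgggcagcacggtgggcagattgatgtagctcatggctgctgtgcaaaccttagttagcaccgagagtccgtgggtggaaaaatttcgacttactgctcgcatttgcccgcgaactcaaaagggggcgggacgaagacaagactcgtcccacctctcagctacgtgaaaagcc

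All 4 genes of histidine breakdown rose, and each of them passed in every planned fit. In order of the pathway they encode histidase, urocanase, imidazolonepropionase and the bifunctional enzyme that hands the formimino group to folate. Hal (chr10:93488768-93519304) had 254, 342 and 287 CPM in I/R against 408, 441 and 493 CPM with Rk2 (log2 fold change 0.60 ± 0.13 SE, adjusted p = 0.0102). Uroc1 (chr6:90333284-90364551) had 194, 251 and 234 CPM against 329, 399 and 391 CPM (0.72 ± 0.13 SE, adjusted p = 0.0045). Amdhd1 (chr10:93523338-93540033) had 127, 146 and 131 CPM against 201, 261 and 249 CPM (0.81 ± 0.12 SE, adjusted p = 0.00239). Ftcd (chr10:76575648-76590338), the most abundant of the 4 at a mean of 98.2 FPKM, had 169, 206 and 198 CPM against 258, 291 and 280.2 CPM (0.53 ± 0.10 SE, adjusted p = 0.00647). None of the 4 overlapped between groups, and their summed FPKM went from 261 ± 12.6 to 369.9 ± 19.7, a ratio of 1.42. Hal and Amdhd1 are neighbours on chromosome 10.

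The 3 genes listed here for the glycine cleavage system, which splits glycine in mitochondria to carbon dioxide, ammonia and a folate-bound carbon, rose together. Dld, a further protein of the system, was also tested and was not called (log2 fold change 0.18, adjusted p = 0.109). Gldc (chr19:30098447-30175429), the decarboxylase, had 121, 161 and 138 CPM in I/R against 208, 225 and 228 CPM with Rk2 (log2 fold change 0.66 ± 0.12 SE, adjusted p = 0.0045). Amt (chr9:108296853-108302302), the aminomethyltransferase, had 23.7, 26.2 and 23.7 CPM against 44.1, 52.8 and 44.7 CPM (0.94 ± 0.10 SE, 1.92-fold, adjusted p = 0.000895). Gcsh (chr8:116981810-116993537), the lipoyl carrier protein, had 72.2, 76 and 72.8 CPM against 108, 112 and 109 CPM (0.58 ± 0.07 SE, adjusted p = 0.00137). The livers of each group lay close to each other for Amt and Gcsh, and Gldc, Amt and Gcsh passed in every fit.

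Serine and threonine dehydration was the single pathway whose genes both had negative values. Sds (chr5:120476526-120483932), serine dehydratase, which makes pyruvate and ammonia from serine and is known for induction by glucagon, had 209, 170.2 and 138 CPM in I/R against 65.1, 114 and 118 CPM with Rk2. The groups did not overlap, and Sds was the 1 gene of the 48 that fell (log2 fold change -0.80 ± 0.25 SE, 95% interval -1.38 to -0.21, 1.74-fold lower, adjusted p = 0.036). The call was lost on leaving out I/R replicate 1 (-0.62, adjusted p = 0.125), I/R replicate 2 (-0.80, adjusted p = 0.0767) or I/R+Rk2 replicate 2 (-0.91, adjusted p = 0.0544). Sds also shares 360 exon bases with Plbd2 on the opposite strand, and the strand setting of the counting was not stated. Sdsl (chr5:120458186-120472810), the related dehydratase next to it, had 12.8, 10.8 and 10 CPM against 9.45, 7.78 and 9.27 CPM, apart in the same direction but not past the threshold (-0.35, 95% interval -0.68 to -0.01, adjusted p = 0.0864).

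Of the 6 genes of methionine and homocysteine, Cbs, Cth and Bhmt rose, and the other 3 genes did not pass. Mtr, methionine synthase, which also uses homocysteine, is not one of these 6 genes. It was tested as a further sulphur amino acid gene and was not called (log2 fold change 0.00, adjusted p = 0.997). Cbs (chr17:31608894-31637238), cystathionine beta-synthase, had 281, 281 and 292 CPM in I/R against 406, 383 and 408 CPM with Rk2 (log2 fold change 0.49 ± 0.08 SE, adjusted p = 0.00316). Cth (chr3:157894248-157925077), cystathionine gamma-lyase, had 236, 245 and 239.9 CPM against 299, 569 and 439.6 CPM, tight in I/R and wide in I/R+Rk2 (0.86 ± 0.21 SE, adjusted p = 0.0159). Bhmt (chr13:93616675-93637961), which returns homocysteine to methionine with betaine, had 1032, 1850.5 and 1054 CPM against 2318, 3048 and 2188 CPM (0.94 ± 0.26 SE, 1.92-fold, adjusted p = 0.0224). All treated livers exceeded all I/R livers for these 3 genes, although I/R replicate 2 was far above the other I/R livers for Bhmt, and its call was lost without I/R replicate 1 (adjusted p = 0.0703), I/R replicate 3 (0.0761) or I/R+Rk2 replicate 2 (0.0743). The call of Cth was lost without I/R replicate 1 (0.0522), and that of Cbs under hepatocyte marker scaling (0.0715). On unfiltered log2(FPKM + 1), Cth (0.0697) and Bhmt (0.0537) lost theirs.

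Mat1a (chr14:41105035-41124412), the liver methionine adenosyltransferase, was the abundant exception, at 2363, 2347 and 2022 CPM in I/R against 1171, 1873 and 1844 CPM with Rk2. The groups did not overlap, with the treated livers lower, and the test did not pass (log2 fold change -0.46, 95% interval -0.91 to -0.01, adjusted p = 0.087). It passed as lower under library size alone (-0.63, adjusted p = 0.0277) and by DESeq2 (-0.45, adjusted p = 0.0473). Gnmt (chr17:46725664-46729168), glycine N-methyltransferase, the second most abundant of all the genes at a mean of 1026 FPKM, had 808, 1132 and 1004 CPM against 1091, 1456 and 1341 CPM (0.40, 95% interval 0.02 to 0.78, adjusted p = 0.0809). With I/R+Rk2 replicate 1 left out it was called higher (0.50, adjusted p = 0.0479). Ahcy, S-adenosylhomocysteine hydrolase, had means of 836 ± 40.8 and 1021 ± 164 CPM (0.29, adjusted p = 0.121).

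Of the 5 genes of branched-chain amino acid oxidation, 3 rose and none fell. Bckdha (chr7:25629946-25658981) and Bckdhb (chr9:83925145-84124240) encode the subunits of the dehydrogenase component that decarboxylates branched-chain keto acids. Bckdha had 111, 139.6 and 142 CPM in I/R against 170.2, 206 and 201 CPM with Rk2 (log2 fold change 0.56 ± 0.13 SE, adjusted p = 0.0113). It shares 1171 exon bases with B3gnt8 on the opposite strand, which stood at 0.365 to 0.798 CPM over the 6 livers. Bckdhb had 35.7, 43.4 and 41.4 CPM against 48.3, 59.8 and 61 CPM (0.49 ± 0.12 SE, adjusted p = 0.0176), a call lost without I/R replicate 1 (0.0604), I/R+Rk2 replicate 2 (0.061) or I/R+Rk2 replicate 3 (0.0511). The call of Bckdhb was also lost with the length trend removed (0.0906), on the 3 FPKM scales (0.0524 to 0.0557) and under hepatocyte marker scaling (0.0857). Hibch (chr1:52844929-52920986), a hydrolase of valine breakdown, had 29.4, 34.6 and 34 CPM against 40.1, 55.2 and 54.6 CPM (0.61 ± 0.14 SE, adjusted p = 0.0129). Dbt, the transacylase core of the same complex, missed the threshold with groups apart (means 29.9 ± 3.26 and 37 ± 2.37 CPM, 0.31, 95% interval 0.05 to 0.56, adjusted p = 0.0543). Ivd, isovaleryl-CoA dehydrogenase of leucine breakdown, was also apart, but with 1 low I/R liver (55.5, 133 and 124 CPM against 145, 167 and 158 CPM) its interval spanned 0 (0.59, 95% interval -0.10 to 1.29, adjusted p = 0.143).

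Both mitochondrial genes of proline breakdown rose. Prodh (chr16:18060357-18090203), proline dehydrogenase, had 52.3, 81.1 and 71.8 CPM in I/R against 118, 146 and 100.3 CPM with Rk2 (log2 fold change 0.83 ± 0.19 SE, adjusted p = 0.0129). Aldh4a1 (chr4:139622866-139649690), the dehydrogenase that completes the conversion to glutamate, had 219, 292 and 269 CPM against 351, 433 and 375 CPM (0.57 ± 0.14 SE, adjusted p = 0.0132). The treated livers were above the I/R livers for both. Aldh4a1 shares 1595 exon bases with Gm21969 on its own strand, and adding the counts of Gm21969 left the log2 fold change at 0.57.

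Among the aminotransferases, which move amino groups between amino acids and keto acids, 1 of 5 genes was called. Got2 (chr8:95864134-95888547), the mitochondrial aspartate aminotransferase, had 289, 324 and 304 CPM in I/R against 377, 406 and 339.8 CPM with Rk2, apart by a small step (log2 fold change 0.29 ± 0.10 SE, 95% interval 0.06 to 0.52, adjusted p = 0.0455). That call was lost under library size alone (0.14, adjusted p = 0.363) and without any of 5 of the 6 libraries. Gpt (chr15:76695716-76699686), alanine aminotransferase 1, had 133, 174 and 169.9 CPM against 184, 229 and 202 CPM (0.37, 95% interval 0.06 to 0.68, adjusted p = 0.0585), and passed as higher by DESeq2 (0.38, adjusted p = 0.0415) and under upper-quartile scaling (0.42, adjusted p = 0.0377). Gpt2 (chr8:85492576-85527560), alanine aminotransferase 2, had 439, 385 and 343 CPM against 245, 349.6 and 289 CPM (-0.40, 95% interval -0.76 to -0.04, adjusted p = 0.0684), and passed as lower by DESeq2 (-0.39, adjusted p = 0.043), under library size alone (-0.57, adjusted p = 0.0305) and without I/R+Rk2 replicate 2 (-0.54, adjusted p = 0.0328). Both members of the alanine pair therefore stood just outside the threshold in opposite directions. Got1, the cytosolic aspartate aminotransferase, had means of 199.9 ± 24.2 and 162 ± 49.5 CPM (-0.31, adjusted p = 0.303), and Agxt, the alanine-glyoxylate aminotransferase, 176 ± 11.9 and 224 ± 36.6 CPM (0.35, adjusted p = 0.0678). Agxt passed as higher by DESeq2 (0.36, adjusted p = 0.0394), under upper-quartile scaling (0.40, adjusted p = 0.0409) and without I/R+Rk2 replicate 1 (0.46, adjusted p = 0.0157).

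**Figure D4:**
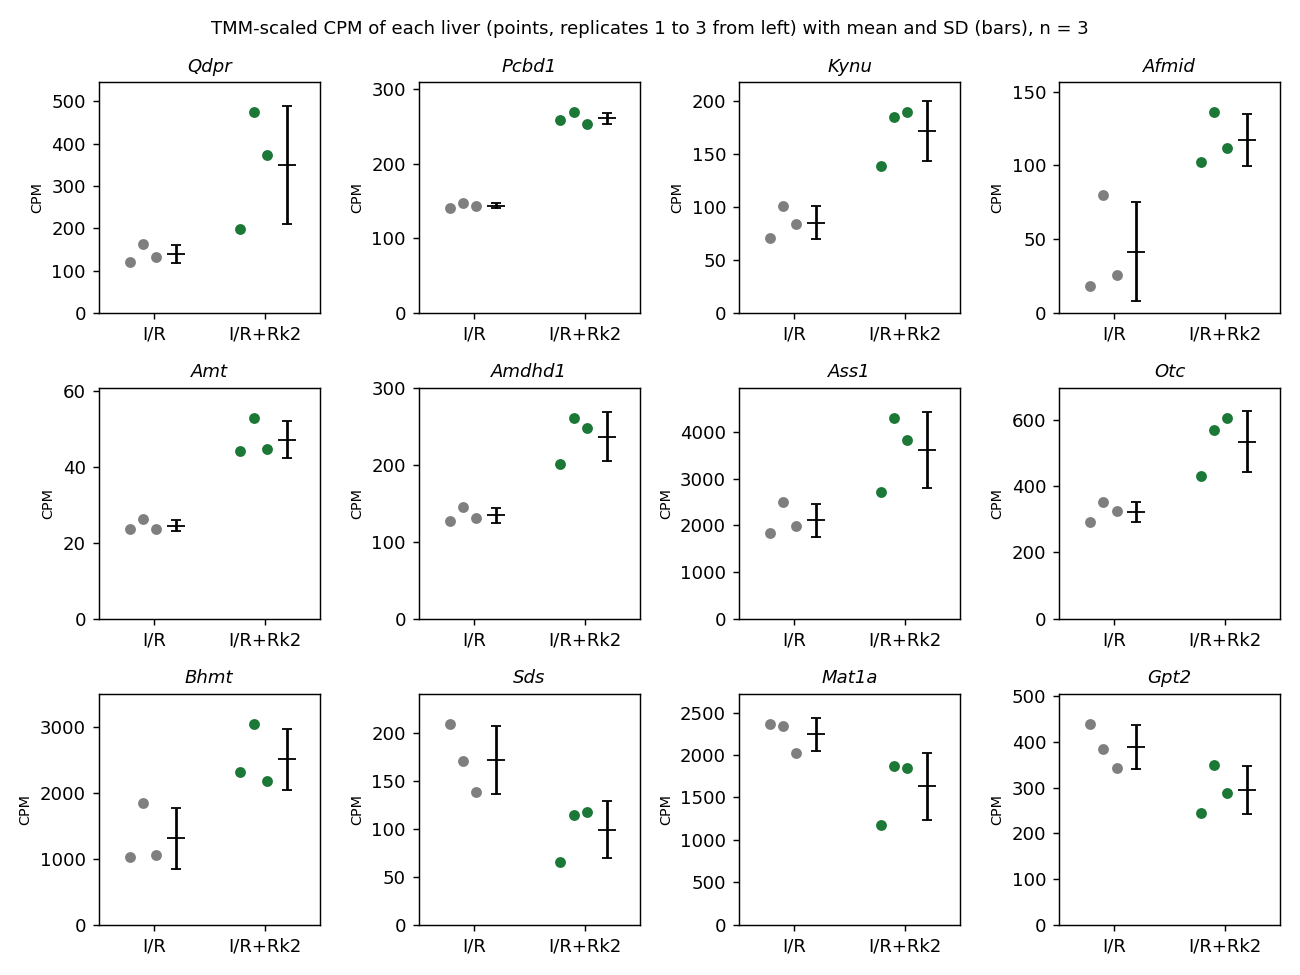
TMM-scaled CPM (vertical axes, each from 0) of 12 of the genes in each liver (points, replicates 1 to 3 from left, I/R in grey and I/R+Rk2 in green) with the mean and SD of each group (bars, n = 3). The groups are separate in each panel except that of Gpt2, Qdpr is spread from 198 to 474 CPM in I/R+Rk2, and Afmid has 1 I/R liver at 80.1 CPM above the others.

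Relative levels within pairs of related genes were taken as differences of log2 CPM in each liver, which cancel the library scaling. For Gpt minus Gpt2 the differences were -1.72, -1.15 and -1.01 in I/R and -0.41, -0.61 and -0.52 in I/R+Rk2, apart between the groups, with a shift of 0.78 toward Gpt. For Got1 minus Got2 they were -0.70, -0.52 and -0.63 in I/R and between -1.82 and -0.97 in I/R+Rk2, also apart, with a shift of -0.64 away from the cytosolic form. Sds minus Sdsl overlapped between the groups, with means of 3.93 ± 0.13 and 3.44 ± 0.58. An exact permutation test of 3 livers against 3 cannot reach a p below 0.10, so none is given for these differences.

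Sorted by place in the cell, 13 of 19 genes of mitochondrial enzymes rose and none fell (median log2 fold change 0.54), and 18 of 29 tested genes of cytosolic or peroxisomal enzymes rose and 1 fell (median 0.49). Sorted by place in the lobule, 7 of 8 genes known as periportal rose (Cps1, Ass1, Asl, Arg1, Hal, Uroc1 and Gls2) and the eighth, Sds, fell, with a median of 0.53. Glul and Oat, the 2 known as pericentral, had a median of -0.30 and neither passed. The difference between these classes was not tested.

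Other genes of amino acid metabolism, from a list of 83 of which 77 were tested, were described in the same way. Of these, 45 rose, 10 fell and 22 did not pass, with a median of 0.51. Of all genes tested, 20.3% were called higher and 23.7% lower, and the smaller groups below that lie near these shares are not set apart from them. Within that list, the further branched-chain genes had 13 of 17 higher and none lower (median 0.42). Lysine and further tryptophan genes had 8 of 12 higher and 1 lower, sulphur amino acid genes 6 of 11 and 2, glycine, serine and choline genes 5 of 10 and 2, and further aminotransferases and oxidases 7 of 9 and 1. Further urea cycle and arginine genes had 3 of 6 higher and 1 lower, and further tyrosine genes 1 of 2 and none. Further glutamate, ornithine and proline genes had 1 of 5 higher and 2 lower (median -0.26), and one-carbon genes 1 of 5 higher and 1 lower (median 0.35). The genes named first are among those with the smallest p. Those that rose were Glyctk, glycerate kinase of serine breakdown (77.3, 82.2 and 74.7 CPM in I/R, 178, 144 and 154 CPM with Rk2, log2 fold change 1.02, adjusted p = 0.000683), and Ddc, aromatic amino acid decarboxylase (28.2, 43 and 34.9 CPM, 136, 102 and 107 CPM, 1.70, adjusted p = 0.000792). Tst, thiosulfate sulfurtransferase (0.88, adjusted p = 0.00113), Ido2, an indoleamine dioxygenase (2.15-fold, adjusted p = 0.00126), and Bhmt2, the second homocysteine methyltransferase (1.17, adjusted p = 0.00131), also rose. The groups were apart for each of these 5.

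The 10 genes of that list that fell included several of synthesis. Gclc, the catalytic subunit of the enzyme that begins glutathione synthesis, fell from 1248, 1334 and 1022 CPM to 359.9, 397 and 422 CPM (log2 fold change -1.61 ± 0.13 SE, adjusted p = 0.000366). Asns, asparagine synthetase, fell from 12.6, 10.8 and 13.7 CPM to 4.12, 2.75 and 2.76 CPM (-1.94 ± 0.20 SE, adjusted p = 0.000699). A further 7 are named here after their values were seen. Phgdh (1.62, 2.65 and 2.07 CPM against 0.462, 0.148 and 0 CPM, adjusted p = 0.00768) and Psat1 (-3.47, adjusted p = 0.00187) make serine, Aldh18a1 (-2.21, adjusted p = 0.00137) makes the precursor of proline, and Mthfd2 (-1.78, adjusted p = 0.00326) is a mitochondrial folate enzyme. Mat2a (-0.83, adjusted p = 0.00587) is the methionine adenosyltransferase of tissues other than the adult liver, Arg2 (8.49, 8.31 and 8.81 CPM against 2.18, 0.651 and 0 CPM, adjusted p = 0.0131) the mitochondrial arginase outside the cycle, and Aass (-0.85, adjusted p = 0.00267) the first enzyme of lysine breakdown.

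Regulators known to act on amino acid catabolic genes did not move in one direction: of 12 tested, 4 rose, 2 fell and 6 did not pass, with a median of 0.06. Of all genes tested, 20.3% were called higher, 23.7% lower and 43.9% in either direction, so these few calls are not set apart from that background. Gcgr, the glucagon receptor, rose from 83.7, 87.9 and 91.9 CPM to 128, 137 and 137 CPM (log2 fold change 0.61 ± 0.08 SE, adjusted p = 0.00155). Cebpa, a transcription factor of differentiated hepatocytes, rose from 229, 266 and 267 CPM to 408, 417 and 378 CPM (0.66 ± 0.10 SE, adjusted p = 0.00231), and Klf15, a factor known to drive amino acid breakdown in fasting, from 48.9, 50.6 and 57.9 CPM to 67.9, 104 and 111 CPM (0.85 ± 0.19 SE, adjusted p = 0.0101). Hnf4a, a hepatocyte nuclear receptor and also one of the hepatocyte markers, fell from 639, 680.2 and 661 CPM to 414, 502 and 464 CPM (-0.52 ± 0.10 SE, adjusted p = 0.00583). No relation between these regulators and the amino acid genes was tested.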

How the data were processed

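Liver RNA from 6 mice (3 I/R, 3 I/R+Rk2) was sequenced. The authors deposited whole-number counts per gene and FPKM (fragments per kilobase of transcript and per 1000000 mapped fragments), a length-scaled level; the submitters' processing notes name FastQC 0.11.5, HISAT2 2.2.1, StringTie 1.3.3 and mm10, and the annotation and strand setting are not given in the sources used here. The 49 genes, the lists and the tests were chosen with earlier results of these data known. Genes were matched by symbol; 21 count rows carry a date in place of a symbol and were named nowhere. The count fit used edgeR 4.0.16 under R 4.3.3: filterByExpr, TMM scaling, estimateDisp and the quasi-likelihood F test of I/R+Rk2 against I/R over all 12411 genes kept, with Benjamini-Hochberg adjustment and no covariate. A gene was called at an adjusted p below 0.05, and the fold limit was 2. The SE is the absolute log2 fold change divided by the square root of F. Levels were compared between genes only in FPKM. Nothing in the labels says more of the replicates than their numbers, so p-values measure the spread between these samples. Replicate pairs differed by more than sampling noise (chi-square per degree of freedom 31.4 to 74.8).

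Depth was 16809613 to 35618074 counts, and 3 counts, the limit that a count of 0 allows, correspond to 0.0888 to 0.184 CPM, counting error only. Coordinates are from GENCODE M21 (GRCm38, the same assembly as mm10) and promoters from RefSeq (GRCm38.p6). Alternatives comprised 17 planned settings, among them DESeq2 1.42.0 and limma 3.58.1 on log2(FPKM + 1 or 0.1), and 2 chosen after seeing the data, which were hepatocyte marker scaling and the addition of same-strand neighbours. Fits were tested on simulated data. Every member past the fold limit, up to 3 further members per pathway with the smallest p, and the member of highest mean FPKM were to be given liver by liver, as were at most 8 other pathway genes and 4 regulators with the smallest p; some further members are also given in full, and 1 gene that this rule names is not reported here.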

Additional observations from a re-analysis of the deposited data

How the results depend on the processing

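For the 48 genes under the 17 planned and 2 added settings, 780 of 912 values kept their direction and side of the threshold, 91 lost a call, 31 gained one and 10 turned sign. In all 17 planned settings, 19 genes kept their call, and 6 (Nags, Oat, Tat, Kmo, Ivd and Got1) were called in no setting. The number of genes called lower, 1 as reported, was 3 under library size alone and by DESeq2, 2 with the length trend removed, 4 on log2(FPKM + 1) and on log2(FPKM + 0.1) at a mean FPKM of at least 1, 0 on unfiltered log2(FPKM + 1), 5 under hepatocyte marker scaling and 0 to 1 without single libraries. The number called higher, 31 as reported, was 20 on unfiltered log2(FPKM + 1), 21 under hepatocyte marker scaling and 21 to 34 without single libraries. The number past the fold limit, 3 as reported, was 1 with no filter on low counts, 1 on unfiltered log2(FPKM + 1) and 1 to 4 without single libraries. The median log2 fold change of 0.52 became 0.36 under library size alone, 0.29 under hepatocyte marker scaling and 0.46 to 0.60 without single libraries. Of all genes, 1813 were past the fold limit, against 901 on log2(FPKM + 1) at a mean FPKM of at least 1 and 921 unfiltered. Calls of all genes split into 2516 higher and 2938 lower as reported, 1320 and 3481 under library size alone, and 1077 and 3914 under hepatocyte marker scaling. Nags turned to -0.05 under library size alone, -0.06 on each log2(FPKM) scale and -0.12 under hepatocyte marker scaling, and Kmo to -0.01, -0.02 and -0.08. Apart from changes that follow from fewer libraries, the cause was not tested.

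Replicate numbers are shared by the groups, but same-numbered livers did not deviate together (correlations of deviations from the group means of -0.0559, 0.00522 and -0.0579), so the numbers were not taken as pairs. With the replicate number as a block, 33 genes were called higher and 0 lower, 3 passed the fold limit, the median was 0.52, and 4713 of all genes were called against 5454 without it. Sds lost its call there (adjusted p = 0.0821), and Gnmt and Gpt gained one (0.017 and 0.0246).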
